A study of Caenorhabditis elegans with 14 samples.

Results

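The TY2205 strain of Caenorhabditis elegans yields animals with 1 X chromosome that develop as hermaphrodites, and its whole worms were compared here between young adulthood and the L3 larval stage. The genes described are all those with a mean of at least 1 FPKM (fragments scaled by transcript length and library depth) over 3 young adult and 3 L3 libraries of this strain, which gave 13378 of the 20376 genes with values. The lowest mean that passed was 1.00057 FPKM and the highest that did not was 0.9998 FPKM. The series holds 14 libraries of 2 strains and asks how sex and X chromosome number each contribute to sex-biased expression. Its other strain, CB5362, yields males with 2 X chromosomes, with 4 young adult and 3 L3 libraries. A further TY2205 young adult library, which the submitters marked as reverted, was left out.

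Young adults were grown for 44 h at 25 °C, and L3 larvae were collected after overnight hatching and 24 h on plates at a temperature that the labels do not give, so stage and temperature cannot be told apart. As background, TY2205 is known to carry mutations in her-1, sdc-3 and xol-1, and CB5362 in tra-2 and xol-1. The labels give only the strain names. In TY2205, xol-1 was listed at 0 FPKM in all 6 libraries and sdc-3 stayed between 0.24 and 0.416 FPKM in them. The male-promoting gene her-1, whose mutation need not lower its RNA, had 26.1, 42.7 and 14.7 FPKM in young adults, against 39.8, 9.83 and 12.5 FPKM in L3 larvae. The her-1 values of the stages overlapped and the gene was not called at adjusted p = 0.426 by limma, although it was called higher by 1.51 on the log2 scale without young adult replicate 3 and L3 replicate 1. Of 12 genes marking male sensory neurons, male tail or male gonad, 9 stayed under the filter and the other 3 (mab-3, cwp-2 and cwp-4) reached no more than 3.24 FPKM in any library. Of these, cwp-4 was called lower by 1.12 ± 0.28 (SE) on the log2 scale (a call lost under a common sum), with 0.398, 0.361 and 0.339 FPKM in young adults, against 3.07, 1.36 and 1.72 FPKM in L3 larvae. The summed level of the 12 genes made up 0.000417% to 0.000532% of all FPKM in young adults, against 0.000473% to 0.00062% in L3 larvae.

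Between the L3 stage and young adulthood a hermaphrodite molts for the last time, completes the vulva and uterus, makes a limited number of sperm and then switches its germ line to oocytes. Yolk is made in the intestine and taken up by growing oocytes, which also store the RNAs that the early embryo will translate. The cuticle is rebuilt at each molt from collagens, many of which are specific to a stage. Germ cells of C. elegans are known to keep most of the X chromosome at low expression.

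The libraries of each stage were compared with one another before the stages were compared. Relative depth, estimated from the steps between low values with young adult replicate 1 set to 1, was 0.684 to 1.01 in young adults, against 0.216 to 0.771 in L3 larvae, and absolute depth is unknown. Summed FPKM was 916127 to 940071 in young adults and 1317414 to 1574087 in L3 larvae. Young adult replicate 3 stood apart from its group, with rank correlations across genes of 0.943 and 0.962 to the other young adult libraries, which correlated at 0.981 with each other. L3 replicate 1 likewise had 0.886 and 0.898, against 0.975 between the other L3 libraries. The median standard deviation of a gene within a stage was 0.173 in young adults and 0.377 in L3 larvae on the log2 scale. The labels do not say whether the replicates were separate cultures, so p-values measure only the spread between these libraries.

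Of the 13378 genes, 4883 (36.5%) were higher and 3791 (28.3%) lower in young adults at an adjusted p under 0.05, by limma on log2(FPKM + 1) with Benjamini-Hochberg adjustment. That scale understates changes of low genes. The median gene changed by 0.08. Changes of at least 3 on the log2 scale were called for 700 higher and 382 lower genes. In 133 genes every young adult library had at least 10 FPKM and every L3 library under 1 FPKM, and in 25 genes the reverse held. How many genes were called in each direction depended on how the libraries were scaled. Scaling every library to a common sum moved the median gene to 0.63 and gave 6114 higher and 2097 lower genes (74.5% of calls higher, against 56.3% as reported), and upper-quartile scaling moved it to -0.41 with 3733 higher and 5525 lower (40.3%). Without L3 replicate 1 and young adult replicate 3 there were 5739 higher and 4201 lower genes. Under the reported values and 4 other scalings, 3586 genes were called higher every time and 2046 lower every time. List medians below are to be read against these shifts of the median gene. List counts are likewise to be read beside the 36.5% higher and 28.3% lower of all tested genes.

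**Figure D1:**
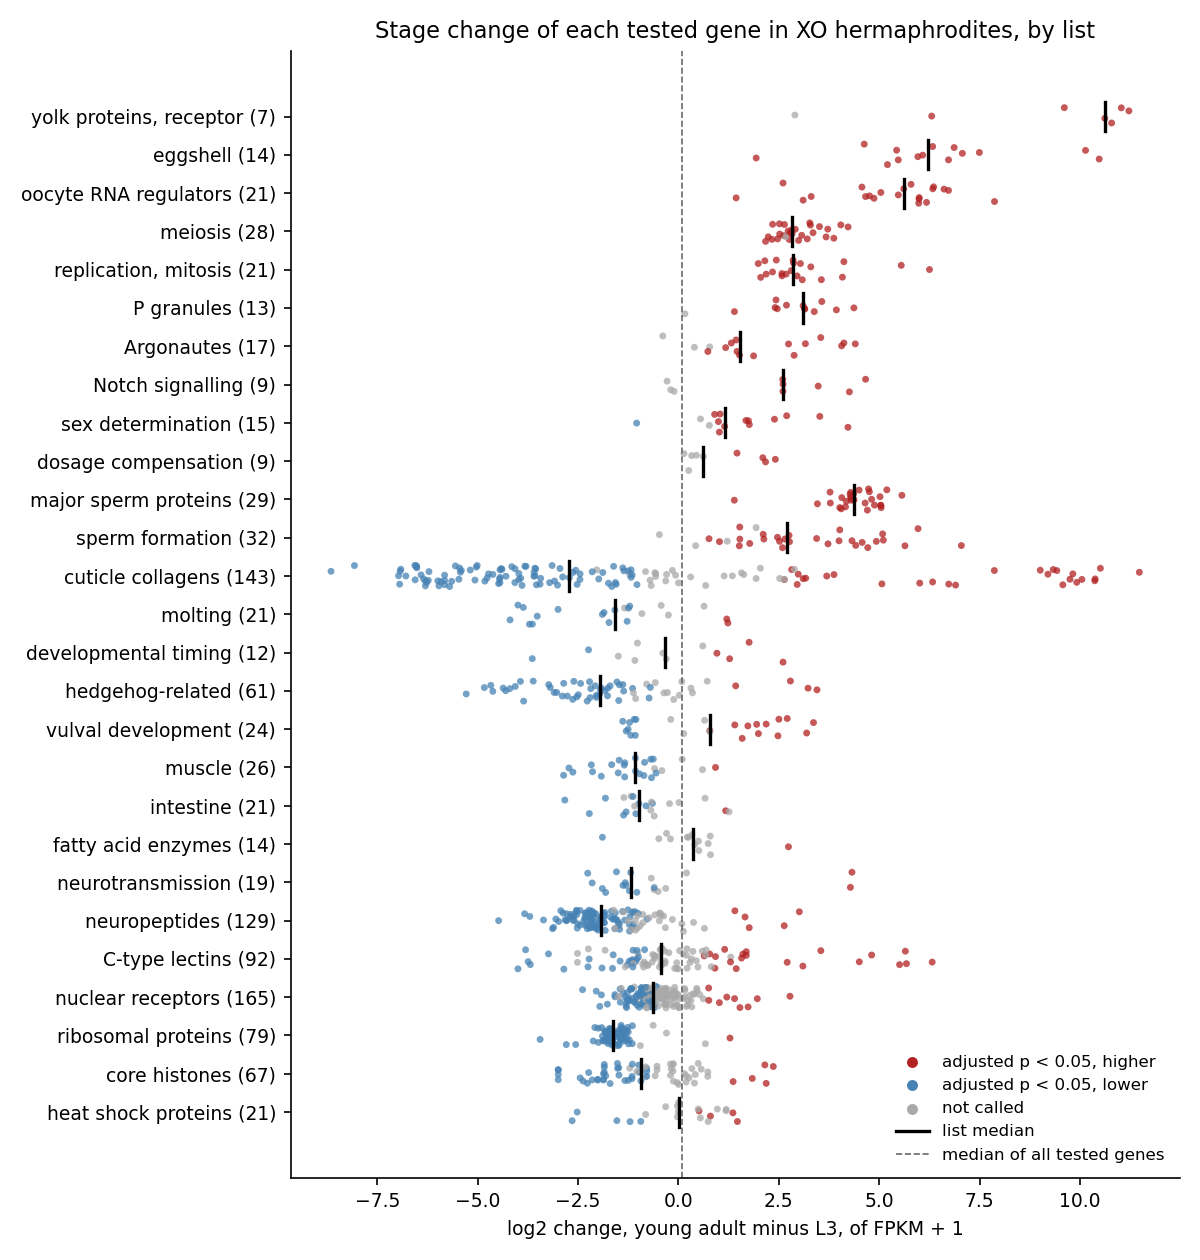
Log2 change (young adult minus L3) of every tested gene in 27 lists, with the number tested in brackets, 1 point per gene. Red points were called higher, blue lower and grey not called, black bars are list medians, and the dashed line is the median of all tested genes at 0.08. Yolk, eggshell and oocyte lists lie to the right under every scaling, collagens fall on both sides, and ribosomal protein and neuropeptide genes lie to the left under every scaling; the medians of the developmental timing, fatty acid, C-type lectin and heat shock lists changed sign between scalings.

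Genes for yolk and its uptake were among the largest rises. Of the 7 yolk genes, 6 were called higher, with a list median of 10.62. The vitellogenin vit-2, a yolk protein precursor, had 6384, 5349.6 and 5362 FPKM in young adults, against 9.32, 0.155 and 0.127 FPKM in L3 larvae. All 3 young adult libraries lay far above the highest L3 library, which was replicate 1. The log2 change of vit-2 was 11.22 ± 0.82 (SE), at an adjusted p of 6.44e-05 by limma. The family members vit-5, vit-3, vit-4 and vit-1 rose by 11.03, 10.79, 10.62 and 9.61. Because vit-3, vit-4 and vit-5 are near-identical copies, the split of reads among them is uncertain. The receptor that takes up yolk into oocytes, rme-2, had 284, 310.4 and 267 FPKM in young adults, against 2.06, 3.40 and 2.55 FPKM in L3 larvae, a change of 6.31 ± 0.19 (SE). The sixth vitellogenin, vit-6, was listed at 0, 0 and 10492 FPKM in young adults, against 16.9, 0.287 and 0.0955 FPKM in L3 larvae, and was not called. Among tested genes 54 had such a 0 beside at least 10 FPKM in the same stage. With vit-6 at 0 in 2 young adult libraries, the yolk list took 1.94% to 2.93% of summed FPKM in young adults, against 0.000253% to 0.00328% in L3 larvae. In whole worms, more cells of a type and more RNA per cell cannot be told apart, here and below.

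All 14 genes of the eggshell and of egg activation were called higher (36.5% of all tested genes were), with a median of 6.21. For each of them the lowest young adult library lay above the highest L3 library, as it did for 39.4% of all tested genes. The eggshell proteins perm-2 (C44B12.1) and perm-4 (C44B12.5), which act in the permeability barrier of the egg, had the largest changes. For perm-2 the levels were 2709, 2707 and 2143 FPKM in young adults, against 3.04, 0.333 and 0 FPKM in L3 larvae. Levels of perm-4 were 1763, 1702 and 1367 FPKM in young adults, against 1.74, 0 and 0.0444 FPKM in L3 larvae. The L3 libraries held next to none of either transcript. Their log2 changes were 10.48 ± 0.49 (SE) for perm-2 and 10.14 ± 0.40 (SE) for perm-4. The chitin-binding protein gene cbd-1 had 655, 731 and 625 FPKM in young adults, against 4.60, 1.78 and 2.28 FPKM in L3 larvae. The eggshell proteoglycan gene cpg-1 had 1385, 1409 and 1263 FPKM in young adults, against 7.66, 10.9 and 14.1 FPKM in L3 larvae. Receptor-like protein EGG-1 of the oocyte surface takes part in fertilization, and its gene had 314, 329 and 284 FPKM in young adults, against 0.883, 1.63 and 1.46 FPKM in L3 larvae. These 3 genes rose by 7.50, 6.87 and 7.07.

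The same direction held for 21 RNA-binding proteins that control stored messages in oocytes and early embryos. All 21 were called higher, with a median of 5.61. The Pumilio-family gene puf-5 had 433, 485 and 413 FPKM in young adults, against 1.17, 0.768 and 0.766 FPKM in L3 larvae. Its change of 7.87 ± 0.18 (SE) was the largest of the list. Zinc-finger regulator pos-1 had 789.8, 826 and 660.1 FPKM in young adults, against 4.82, 7.98 and 5.96 FPKM in L3 larvae. Genes for the paired oocyte maturation factors oma-1 and oma-2 rose by 5.99 and 6.34. The translational repressor gld-1 had 371, 419.9 and 374 FPKM in young adults, against 11.4, 5.38 and 5.38 FPKM in L3 larvae. On the per-length scale of FPKM, gld-1 lay above puf-5 in each L3 library, and its change was 5.61 ± 0.28 (SE). The smallest rises were those of atx-2 (1.44) and lin-41 (2.61), which are also expressed outside the germ line. In lin-41, L3 replicate 1 stood at 44.3 FPKM, against 7.43 and 6.45 FPKM in the other L3 libraries.

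The 5 genes whose symbols begin with ule, named for proteins of the uterine lumen, were noticed after their values had been seen and are described without a test of their own. All 5 were called higher, by 7.04 to 9.91. Levels of ule-4 (C08F11.11) were 1242, 1100.3 and 1117 FPKM in young adults, against 0.721, 0 and 0 FPKM in L3 larvae. Their highest L3 value was 1.71 FPKM, that of ule-3 (D1054.11) in replicate 1. Among genes outside the lists, gfat-2 (F22B3.4), a glutamine-fructose-6-phosphate aminotransferase gene at the head of the pathway to chitin, also rose, with 278, 313 and 265 FPKM in young adults, against 1.504, 0.822 and 1.97 FPKM in L3 larvae.

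Genes of meiosis, the mitotic cycle and germ granules rose together but by less. Of 28 meiotic genes 27 were called higher, with a median of 2.83. The synaptonemal complex axis gene him-3 had 60.8, 59.5 and 54.9 FPKM in young adults, against 2.54, 4.43 and 4.18 FPKM in L3 larvae. Levels of spo-11, whose product cuts DNA to start recombination, were 18.7, 23.2 and 18.3 FPKM in young adults, against 1.31, 2.72 and 1.96 FPKM in L3 larvae. Both were higher in every young adult library, with changes of 3.68 ± 0.22 (SE) for him-3 and 2.83 ± 0.25 (SE) for spo-11. The exception was him-5, which promotes breaks on the X chromosome, with 121, 159 and 132 FPKM in young adults, against 1.21, 47.3 and 93.4 FPKM in L3 larvae. It was not called, at adjusted p = 0.105 by limma. Its L3 replicate 1 was the low library, and without it the gene was called at a change of 1.03, as it was without L3 replicate 3 at 3.73. Of the 21 replication and mitosis genes 21 were called higher, with a median of 2.86. The B-type cyclin gene cyb-2.2 had 168, 185 and 169 FPKM in young adults, against 1.17, 1.1 and 1.65 FPKM in L3 larvae. Another B-type cyclin, cyb-1, rose by 4.12, the kinase gene cdk-1 by 2.18 and the helicase subunit gene mcm-7 by 3.30.

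P granules are RNA and protein bodies of germ cells. Of 13 of their genes 12 were called higher, with a median of 3.11. The core component gene pgl-3 had 98.8, 119 and 108 FPKM in young adults, against 4.20, 5.81 and 9.30 FPKM in L3 larvae. Its relative pgl-1 rose by 2.69 and the helicase gene glh-1 by 1.395, although glh-1 was not called under every scaling. Argonaute proteins bind small RNAs, and 14 of 17 of their genes were called higher, with a median of 1.52. The nuclear Argonaute gene hrde-1 (C16C10.3), which acts in heritable silencing, had 223, 219.6 and 194 FPKM in young adults, against 13.9, 10.4 and 9.71 FPKM in L3 larvae. Its change was 4.12 ± 0.19 (SE). Levels of alg-5 (T23D8.7), an Argonaute of germ cells, were 53.7, 59.6 and 47.6 FPKM in young adults, against 2.03, 1.18 and 1.56 FPKM in L3 larvae. The piRNA-binding gene prg-1 rose by 1.32, with 110.2, 118 and 106 FPKM in young adults, against 37.9, 45.9 and 49.0 FPKM in L3 larvae. The spermatogenesis Argonautes alg-3 (T22B3.2) and alg-4 (tag-76) stayed low, at 0.59 to 5.82 FPKM in young adults, and both calls were lost without any 1 of the L3 replicates.

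Notch signalling keeps germ cells dividing at the distal end of the gonad. Of 9 genes 6 were called higher, with a median of 2.60. The germline receptor gene glp-1 had 76.5, 82.4 and 65.9 FPKM in young adults, against 3.74, 2.28 and 2.97 FPKM in L3 larvae. Its targets sygl-1 (T27F6.4) and lst-1 rose by 3.48 and 2.60, and the DNA-binding partner lag-1 by 2.60. A Notch ligand gene, apx-1, had 76.2, 80.2 and 66.1 FPKM in young adults, against 2.46, 1.86 and 1.63 FPKM in L3 larvae. The changes of glp-1 and apx-1 were 4.26 ± 0.21 (SE) and 4.66 ± 0.20 (SE), with tight values in both stages. The other 3 genes of the list, the somatic receptor gene among them, were not called as reported. With upper-quartile scaling 2 genes of the list were called lower, and with array weights 1 was.

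**Figure D2:**
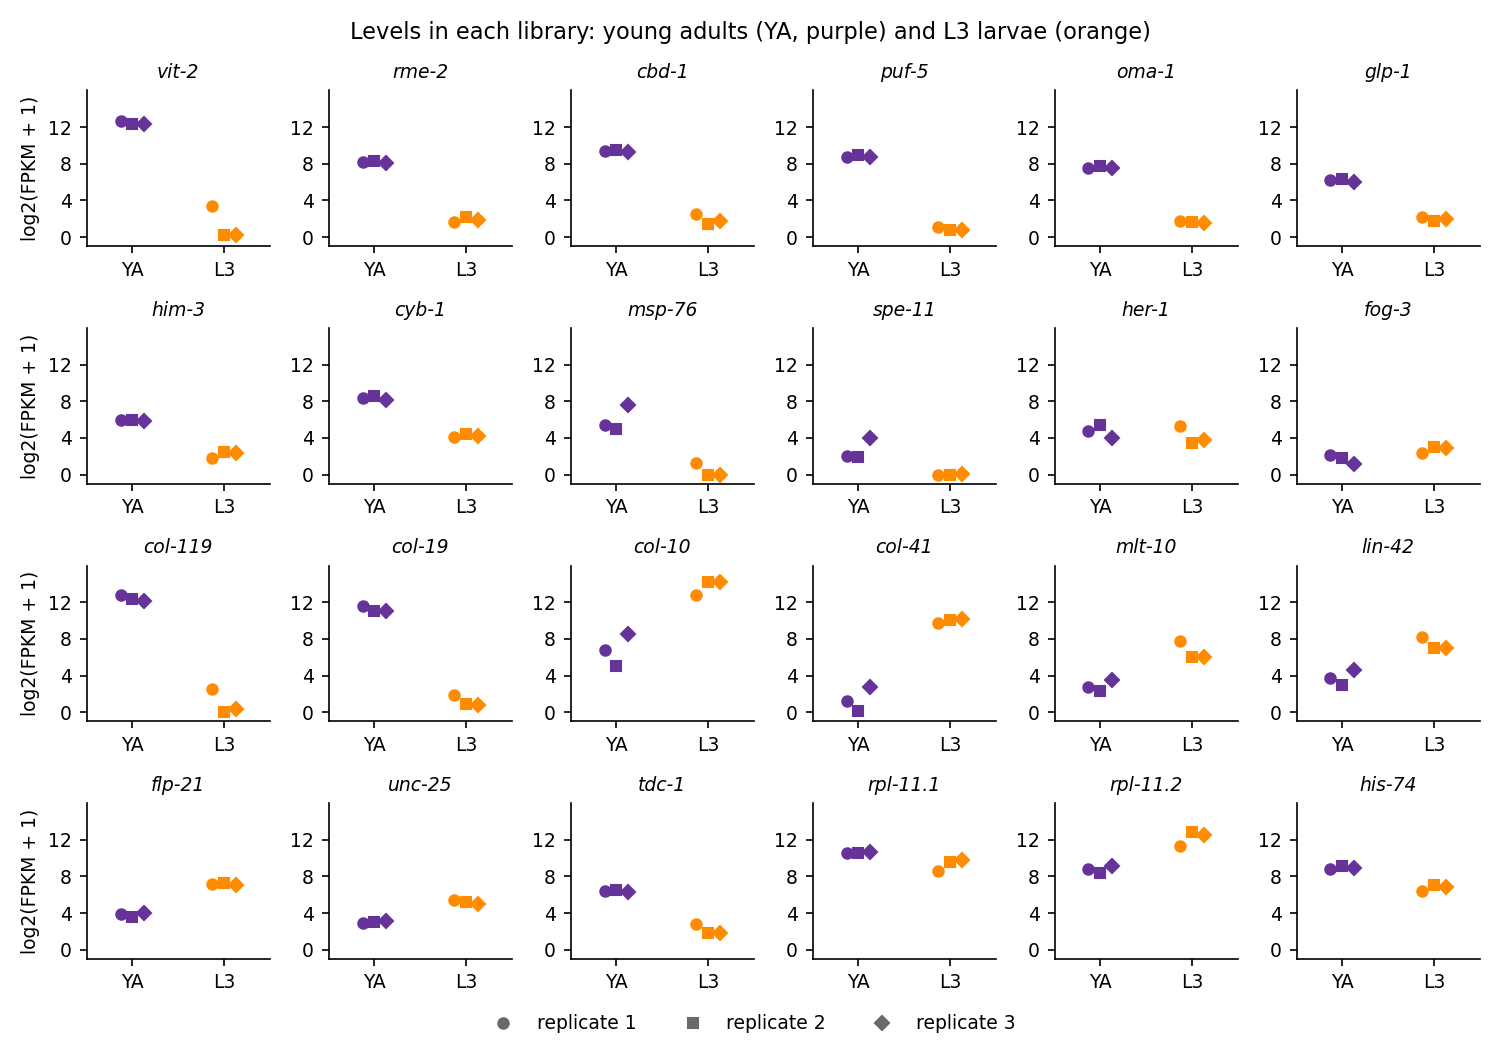
Level of 24 genes on the log2(FPKM + 1) scale in each young adult library (YA, purple, left) and L3 library (orange, right), with marker shapes for replicates 1, 2 and 3. Yolk, eggshell and oocyte genes are high in every young adult library and low in every L3 library, msp-76 and spe-11 are highest in young adult replicate 3, and mlt-10 and lin-42 are highest in L3 replicate 1.

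Sperm genes were also higher in young adults, and many of them were highest in 1 young adult library. All 29 tested major sperm protein genes, which encode the cytoskeletal protein of nematode sperm, were called higher, with a median of 4.36. One further member, msp-63, was under the filter. Many passed through their young adult values, with 22 and 18 of the 30 genes listed at 0 in L3 replicates 2 and 3. With no filter all 30 were called higher, with a median of 4.34. Levels of msp-76 were 41.6, 30.5 and 190.0 FPKM in young adults, against 1.41, 0 and 0 FPKM in L3 larvae. Young adult replicate 3 was several-fold above the other young adult libraries, and the change was 5.57 ± 0.71 (SE). The whole msp list took 0.0624%, 0.0465% and 0.272% of summed FPKM in young adults, against 0.00198%, 0.00031% and 0.000276% in L3 larvae. Without L3 replicate 1 and young adult replicate 3 all 29 were still called higher, with a median of 3.87. Copies of these genes are near-identical, so their single values are uncertain.

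Of the wider list of sperm formation genes 28 of 32 tested were called higher, with a median of 2.70, and 21 others were under the filter. Many passed through young adults alone, and with no filter 30 of 53 were called higher, with a median of 1.52. The small sperm peptide gene nspd-2 had 88.8, 67.8 and 374 FPKM in young adults, against 0, 0 and 0 FPKM in L3 larvae. The gene spe-11, whose product the sperm brings to the egg, had 2.99, 2.71 and 14.8 FPKM in young adults, against 0, 0 and 0.0635 FPKM in L3 larvae. The sperm phosphatase gene gsp-3 had 4.98, 2.98 and 17.98 FPKM in young adults, against 0.313, 0.309 and 0.0587 FPKM in L3 larvae. In all 3 the third young adult library was again the highest, and the changes of spe-11 and gsp-3 were 2.59 ± 0.56 (SE) and 2.65 ± 0.56 (SE). Other members did not share that pattern. The transcription factor gene spe-44 (tag-347), which starts the sperm program, had 11.8, 14.1 and 11.6 FPKM in young adults, against 0.743, 1.34 and 0.903 FPKM in L3 larvae. Levels of wee-1.3, a kinase gene that restrains oocyte maturation, were 94.6, 104 and 88.7 FPKM in young adults, against 5.50, 4.20 and 5.24 FPKM in L3 larvae.

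Genes that decide sex and the choice between sperm and oocyte were mostly higher. Of 15 tested, 12 were called higher and 1 lower, with a median of 1.15. The masculinizing gene fem-3 had 41.7, 48.2 and 36.4 FPKM in young adults, against 1.93, 0.95 and 1.12 FPKM in L3 larvae. Its change of 4.22 ± 0.24 (SE) was the largest of the list. The hermaphrodite-promoting receptor gene tra-2 rose by 1.76 ± 0.34 (SE) on the log2 scale, with 37.7, 38.5 and 33.6 FPKM in young adults, against 17.9, 7.25 and 7.63 FPKM in L3 larvae. Hermaphrodite sperm also need fog-2, which had 33.8, 36.7 and 30.2 FPKM in young adults, against 4.63, 4.17 and 4.17 FPKM in L3 larvae. The final switch to sperm needs fog-1 and fog-3. For fog-1 the change was 1.04 ± 0.23 (SE) on the log2 scale, a call lost under upper-quartile or quantile scaling. The single fall was that of fog-3, with 3.40, 2.54 and 1.30 FPKM in young adults, against 4.10, 7.40 and 6.27 FPKM in L3 larvae. That call was lost without young adult replicate 2 or 3 or L3 replicate 2 or 3, and with a common sum or quantile scaling. Without L3 replicate 1 and young adult replicate 3 the list had 14 higher and 1 lower.

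Dosage compensation lowers expression of each X in XX animals and depends on a condensin complex. Of 9 tested genes 4 were called higher and none lower, with a median of 0.62, and with a common sum 7 were higher. Over all tested genes 36.5% were called higher. All 4 rises were of subunits that this complex shares with the condensin of mitosis and meiosis, namely capg-1, dpy-28, dpy-26 and mix-1, which rose by 2.41, 2.17, 2.10 and 1.46. The subunit found only in the dosage compensation complex, dpy-27, had 13.3, 15.8 and 10.6 FPKM in young adults, against 16.6, 6.93 and 6.87 FPKM in L3 larvae. It was not called, at adjusted p = 0.302 by limma. Its targeting factor sdc-2 had 1.78, 1.98 and 1.83 FPKM in young adults, against 3.34, 1.17 and 0.866 FPKM in L3 larvae and was not called. As many as 8 of the 9 were called higher without L3 replicate 1 alone. The same number held without both L3 replicate 1 and young adult replicate 3, dpy-27 among them at 0.97. With array weights all 9 were called higher, dpy-27 at 0.85.

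X-linked genes were called lower more often than higher under the reported and all 4 other scalings. Autosomal genes were called higher more often under all of these but the upper quartile. Of 1924 tested X-linked genes 190 (9.88%) were called higher and 919 (47.8%) lower, with a median of -0.77. Of 11454 autosomal genes 4693 (41.0%) were called higher and 2872 (25.1%) lower, with a median of 0.31. Autosomes differed among themselves. Chromosome I had 50.2% higher and 19.9% lower, and chromosome V had 28.9% higher and 32.0% lower, the only autosome with more falls than rises as reported. With the upper quartile autosomal genes had 31.3% higher and 36.8% lower, and chromosomes II, IV and V had more falls than rises. With a common sum no autosome did. The X median stayed below the autosomal one under all 4 other scalings, at -0.24 against 0.89 with a common sum, -1.22 against -0.19 with the upper quartile, -0.73 against 0.36 with the median ratio and -0.95 against 0.08 with quantile scaling. Within a library, a comparison that needs no scaling between libraries, the median X-linked gene lay 1.76, 1.80 and 1.75 log2 units below the median autosomal gene in young adults, against 0.22, 0.39 and 0.43 units below it in L3 larvae. The libraries of the stages did not overlap. The difference was -1.42, with an exact two-sided permutation p of 0.1, the smallest that 3 libraries against 3 can give.

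**Figure D3:**
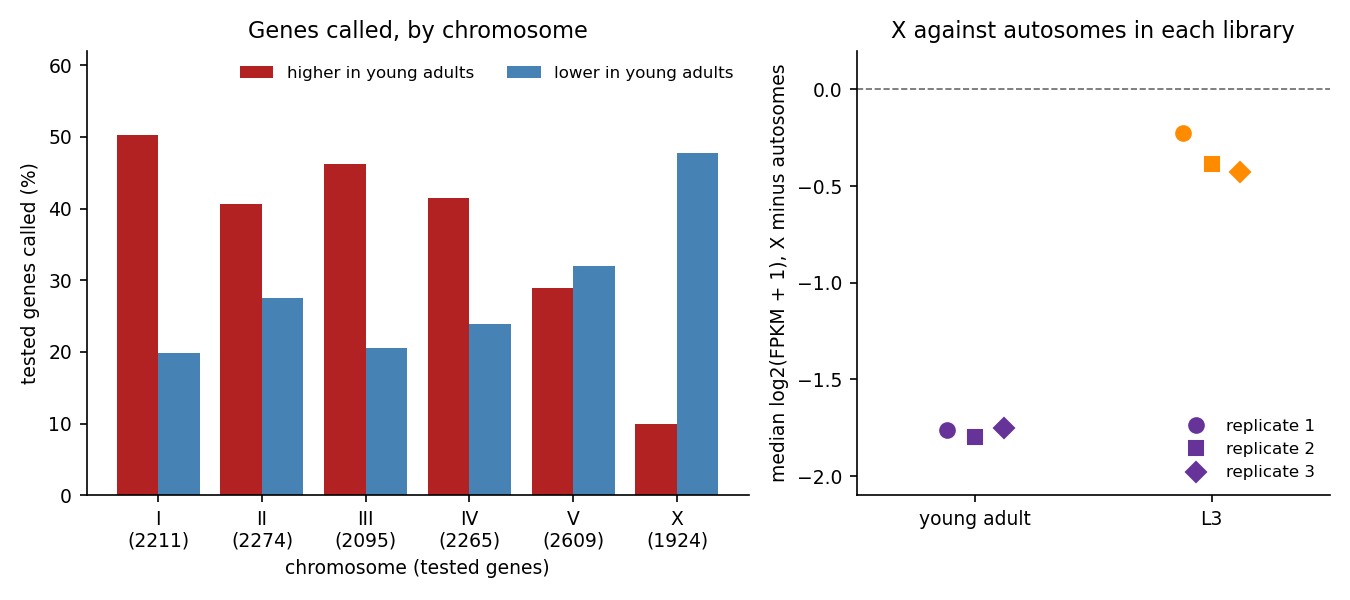
Left, percent of tested genes on each chromosome called higher (red) or lower (blue) in young adults, with the number tested in brackets. Right, median log2(FPKM + 1) of X-linked minus autosomal genes in each library, at -1.75 to -1.80 in young adults and -0.22 to -0.43 in L3 larvae; under all 4 other scalings the median change of X-linked genes stayed below that of autosomal genes.

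Some X-linked genes were exceptions to this direction. The rises of at least 3 on the log2 scale numbered 49 among the 1924 tested X-linked genes, against 76 falls of that size. Among all 13378 tested genes there were 700 such rises and 382 such falls. In 27 X-linked genes every young adult library had at least 10 FPKM and every L3 library under 1 FPKM, as in 133 of all 13378 tested genes. Of the 190 X-linked genes called higher, 10 were vitellogenin or collagen genes, which are made in the intestine and hypodermis. The adult collagen gene col-19 was one of them. Germ granule gene meg-1, also on the X, had 21.7, 25.7 and 20.6 FPKM in young adults, against 0.163, 0.241 and 0.0229 FPKM in L3 larvae.

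Cuticle collagens showed an exchange of members. Of 143 tested collagen genes 27 were called higher and 92 lower, with a median of -2.72, and 36 more were under the filter. With no filter 28 of 179 were higher and 91 lower, with a median of -1.22. The largest rise of any tested gene was that of col-119, with 7127, 5417 and 4394 FPKM in young adults, against 4.91, 0 and 0.236 FPKM in L3 larvae. The adult cuticle collagen gene col-19 had 3146, 2066 and 2137 FPKM in young adults, against 2.61, 0.855 and 0.732 FPKM in L3 larvae. The changes of col-119 and col-19 were 11.48 ± 0.65 (SE) and 10.05 ± 0.33 (SE), with no L3 library near any young adult library. In contrast, col-41 had 1.31, 0.0647 and 5.78 FPKM in young adults, against 859.6, 1087 and 1162 FPKM in L3 larvae. Its fall, -8.65 ± 0.61 (SE), was the largest of any tested gene. The mean L3 level of col-10 was among the 5 highest of all genes, with 114, 32.7 and 365 FPKM in young adults, against 7143, 18634 and 19390.0 FPKM in L3 larvae. Its change was -6.93 ± 0.85 (SE). Since col-10 and col-144 are near-identical copies with parallel values, reads may be split between them. In col-10, col-41, col-90 and col-17 alike, young adult replicate 3 was the highest of its group and replicate 2 the lowest. Leaving out young adult replicate 3 and L3 replicate 1 gave 31 higher and 100 lower.

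**Figure D4:**
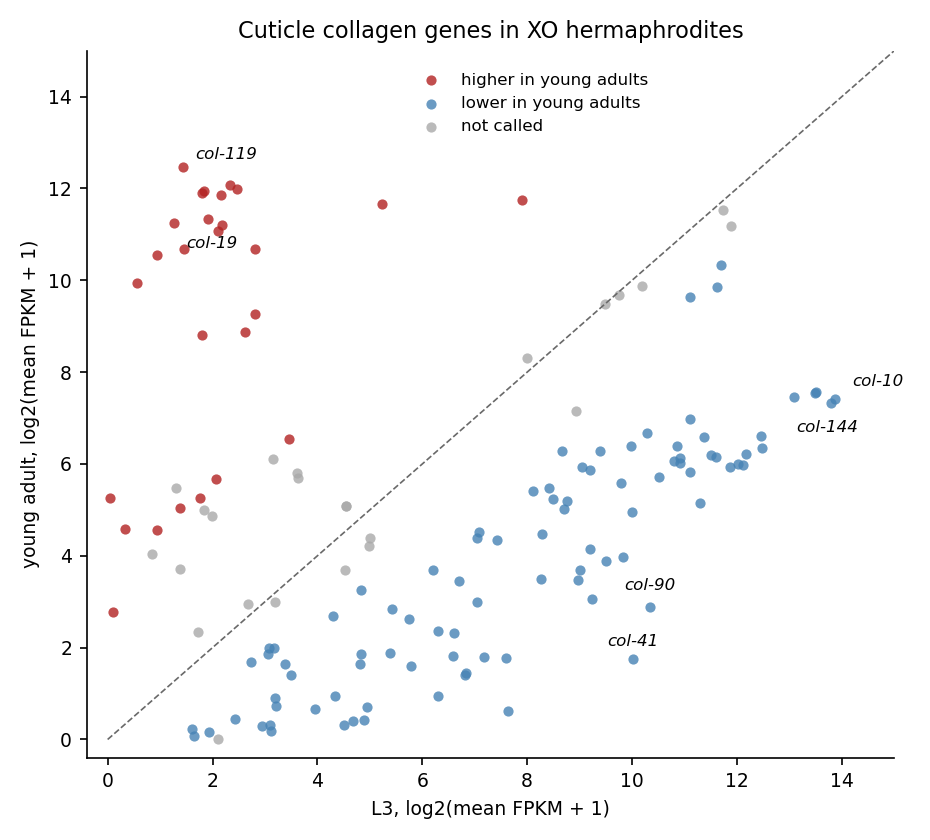
Mean level of 143 collagen genes in young adults (vertical) against L3 larvae (horizontal), both as log2(mean FPKM + 1), with the dashed line at equal levels. The 27 genes called higher (red) lie at the upper left, many near the top of the adult axis with almost nothing at L3, and the 92 called lower (blue) lie below the line.

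More collagen genes fell than rose, and summed collagen FPKM was lower in every young adult library. It was 73990, 54270 and 64190 FPKM in young adults, against 83090, 188500 and 182700 FPKM in L3 larvae. As a share of each library, however, collagens overlapped between the stages. Collagens took 8.08%, 5.90% and 6.83% of summed FPKM in young adults, against 6.31%, 12.4% and 11.6% in L3 larvae. Other cuticle genes also fell. The cuticlin gene cut-2 (F53F1.5) had 16.2, 2.32 and 83.1 FPKM in young adults, against 1495, 3123 and 3050.2 FPKM in L3 larvae. The lipocalin-related genes lpr-4 and lpr-6 fell by 5.14 and 5.04.

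Molting genes were mostly lower in young adults, with 14 of 21 called lower, 2 higher and a median of -1.58. Levels of mlt-10 were 5.78, 3.99 and 10.9 FPKM in young adults, against 210.1, 64.1 and 64.5 FPKM in L3 larvae. The related gene mlt-9 had 1.66, 0.897 and 2.61 FPKM in young adults, against 71.0, 29.7 and 32.6 FPKM in L3 larvae. For noah-1, an apical matrix protein gene, the levels were 8.19, 8.53 and 8.66 FPKM in young adults, against 182, 44.8 and 50.4 FPKM in L3 larvae. The change of mlt-10 was -3.71 ± 0.53 (SE). In each of the 3 genes L3 replicate 1 was the highest library, and the molting list took 0.147% of its summed FPKM, against 0.0643% and 0.0618% in the other L3 libraries. Without that library and young adult replicate 3 the list still had 14 lower. The 2 rises were those of nhr-23, a nuclear receptor needed for molting, and bli-4, a proprotein convertase. The first had 30.7, 31.5 and 29.2 FPKM in young adults, against 26.8, 8.14 and 9.03 FPKM in L3 larvae. Both calls were lost without any 1 young adult replicate and without L3 replicate 2 or 3.

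Developmental timing genes specify which stage a cell carries out. Of 12, 4 were called higher and 2 lower, with a median of -0.35. Among all tested genes 36.5% were called higher and 28.3% lower. For the timing list these shares were not exceeded in either direction. The list median turned positive under a common sum (0.23), with array weights (0.51), without L3 replicate 1 (0.59) and without both libraries that stood apart (0.51). The period-related gene lin-42, which cycles with the molts, had 12.2, 6.55 and 22.8 FPKM in young adults, against 293, 124 and 124 FPKM in L3 larvae. Its change was -3.64 ± 0.50 (SE). A fall was also called for lin-46, with 1.25, 0.714 and 0.719 FPKM in young adults, against 6.82, 7.91 and 9.02 FPKM in L3 larvae. The RNA-binding gene lin-28, known for its early larval role in the hypodermis, had 35.0, 37.0 and 29.6 FPKM in young adults, against 17.1, 6.43 and 7.0 FPKM in L3 larvae. The larval timing gene lin-14 had 6.55, 7.07 and 7.71 FPKM in young adults, against 40.6, 4.39 and 3.44 FPKM in L3 larvae, a high value in L3 replicate 1 alone. It was not called, and without that library its change turned to 0.73 at adjusted p = 0.0103 by limma. The number called higher was 7 without L3 replicate 1, and 2 without young adult replicate 1, L3 replicate 2 or L3 replicate 3. Leaving out both libraries that stood apart gave 6 higher and 4 lower.

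Hedgehog-related genes of worms encode secreted proteins of epithelia, and patched-related genes encode membrane proteins. Of 61 tested 45 were called lower and 4 higher, with a median of -1.96. With no filter 47 of 86 were lower and 5 higher, with a median of -1.13. The groundhog-like gene grl-16 had 16.7, 1.04 and 100.2 FPKM in young adults, against 510.5, 692 and 611 FPKM in L3 larvae. Its change was -5.29 ± 1.25 (SE), with young adult replicate 3 the highest of its group. For warthog gene wrt-10 the values were tighter, with 6.21, 5.87 and 5.67 FPKM in young adults, against 118, 103 and 124 FPKM in L3 larvae. The change of wrt-10 was -4.07 ± 0.16 (SE). The 4 rises were ptr-2, ptc-2, ptc-1 and grd-4. Patched homolog ptc-1, which acts in germline cytokinesis, had 149, 159 and 147 FPKM in young adults, against 36.0, 16.7 and 15.5 FPKM in L3 larvae. Its paralog ptc-2 rose by 3.23 and ptr-2 by 3.45.

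Vulval development genes moved in both directions. Of 24 tested 12 were called higher and 8 lower, with a median of 0.78, and over the 4 other scalings the number lower ran from 2 to 9. Both directions were also common among all tested genes, with 36.5% called higher and 28.3% lower. The rises held all 8 sqv genes, which make the glycosaminoglycans of the vulval lumen and of the eggshell. Of these, sqv-5, the chondroitin synthase gene, had 79.4, 90.6 and 79.0 FPKM in young adults, against 14.6, 5.37 and 4.44 FPKM in L3 larvae. The EGF-like signal lin-3 had 31.7, 41.0 and 32.9 FPKM in young adults, against 3.88, 2.71 and 2.36 FPKM in L3 larvae. The EGF receptor gene let-23 and 2 kinase genes that act below it were also called higher. The let-23 call was lost with the upper quartile, without any 1 young adult replicate and without L3 replicate 2 or 3. Several transcription factors and early markers of vulval cells were lower. The homeobox gene cog-1 had 2.44, 1.77 and 2.60 FPKM in young adults, against 9.12, 7.57 and 6.08 FPKM in L3 larvae. Levels of egl-17, a fibroblast growth factor gene of early vulval cells, were 0.635, 0.649 and 0.839 FPKM in young adults, against 2.27, 2.56 and 2.97 FPKM in L3 larvae. The Hox gene lin-39 fell by 1.22 and the beta-catenin gene bar-1 by 1.06, neither under every scaling.

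Of 26 muscle genes 21 were called lower and 1 higher, with a median of -1.07. The troponin I gene tni-1 had 26.7, 22.5 and 34.6 FPKM in young adults, against 277, 184 and 171 FPKM in L3 larvae. The muscle regulator hlh-1 had 3.70, 4.74 and 3.39 FPKM in young adults, against 16.6, 9.26 and 9.92 FPKM in L3 larvae. The changes of tni-1 and hlh-1 were -2.86 ± 0.25 (SE) and -1.35 ± 0.27 (SE). The single rise was that of act-2, with 1440.2, 1522 and 1381 FPKM in young adults, against 960.2, 663 and 695 FPKM in L3 larvae, and the actin genes are near-identical copies. The calls of hlh-1 and act-2 were each lost under at least 1 scaling. Muscle took 1.38% to 1.63% of summed FPKM in young adults, against 1.496% to 2.18% in L3 larvae, which overlap. The number lower ran from 10 to 23 over the 4 other scalings, and 3 were called higher without L3 replicate 1. Intestinal genes had 10 lower and 1 higher of 21, with a median of -0.98, and 5 to 16 lower over those scalings, 3 being higher where 5 were lower. The intestinal actin gene act-5 had 391, 249.5 and 389 FPKM in young adults, against 1485, 1033 and 1092 FPKM in L3 larvae. A pair of cathepsin B-like protease genes moved apart. The first, cpr-5, had 128, 101 and 263 FPKM in young adults, against 864, 1234 and 1166 FPKM in L3 larvae. The second, cpr-6, had 608, 595 and 554 FPKM in young adults, against 252, 250.2 and 274 FPKM in L3 larvae.

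Fatty acid desaturases and elongases held 1 rise and 1 fall among 14 tested, with a median of 0.37 that was negative under upper-quartile scaling (-0.20). The stearoyl-CoA desaturase gene fat-7 had 95.6, 9.95 and 37.3 FPKM in young adults, against 7.41, 3.0 and 3.05 FPKM in L3 larvae. Its call was lost without young adult replicate 3, L3 replicate 2 or L3 replicate 3. The number higher was 8 without L3 replicate 1 alone. Without L3 replicate 1 and young adult replicate 3, 9 were called higher and 2 lower. Elongase gene elo-4 had 2.08, 1.28 and 2.96 FPKM in young adults, against 19.7, 7.16 and 7.43 FPKM in L3 larvae.

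Neuronal genes were more often lower than higher. Of 19 genes of neurotransmitter synthesis, transport and release 12 were called lower and 2 higher, with a median of -1.19, and the number lower ran from 7 with a common sum to 15 over the 4 other scalings. The GABA-making enzyme gene unc-25 had 6.37, 6.89 and 7.82 FPKM in young adults, against 43.6, 37.3 and 32.0 FPKM in L3 larvae. The acetylcholine enzyme gene cha-1 had 4.14, 3.28 and 3.61 FPKM in young adults, against 19.3, 13.96 and 16.2 FPKM in L3 larvae. The stages did not overlap for either gene, with changes of -2.26 ± 0.20 (SE) and -1.90 ± 0.21 (SE). Both rises were enzymes of 1 pathway, which makes tyramine and octopamine and is known to be active also in the gonadal sheath. Its first enzyme, the tyrosine decarboxylase gene tdc-1, had 84.8, 91.5 and 78.6 FPKM in young adults, against 6.09, 2.48 and 2.47 FPKM in L3 larvae. The second, tbh-1, had 35.0, 27.9 and 25.8 FPKM in young adults, against 0.411, 0.558 and 0.584 FPKM in L3 larvae. Both were high in all young adults, with changes of 4.28 ± 0.31 (SE) and 4.32 ± 0.21 (SE).

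Among 129 neuropeptide and insulin-like genes 97 were called lower and 5 higher, with a median of -1.93, and the number lower ran from 81 to 110 over the other scalings. The FMRFamide-like peptide gene flp-21 had 13.5, 10.5 and 14.8 FPKM in young adults, against 142, 151 and 130.3 FPKM in L3 larvae. Levels of nlp-12 were 38.0, 26.4 and 34.1 FPKM in young adults, against 277, 305 and 251 FPKM in L3 larvae. The insulin-like gene ins-35 had 0.884, 0.874 and 0.969 FPKM in young adults, against 122, 19.1 and 30.1 FPKM in L3 larvae. The changes of these 3 genes were -3.36 ± 0.18 (SE), -3.05 ± 0.19 (SE) and -4.48 ± 0.63 (SE). The 5 rises were mainly insulin-like genes, namely ins-34, ins-23, ins-37 and ins-32, with nlp-28. These insulin-like genes passed the filter through their young adult values, and ins-35 through its L3 values, so their calls are given as a description. A further 17 genes of the list were under the filter. In ins-32 the levels were 1.30, 2.57 and 2.84 FPKM in young adults, against 0, 0 and 0 FPKM in L3 larvae. For ins-34 the levels were 14.9, 14.9 and 10.0 FPKM in young adults, against 2.02, 0 and 0.757 FPKM in L3 larvae. The call of nlp-28 was lost without young adult replicate 2 or 3 or L3 replicate 2. Peptide-processing enzyme genes egl-21 and egl-3 fell by 1.81 and 1.38. Neuropeptides took 0.306% to 0.385% of summed FPKM in young adults, against 0.753% to 0.909% in L3 larvae.

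**Figure D5:**
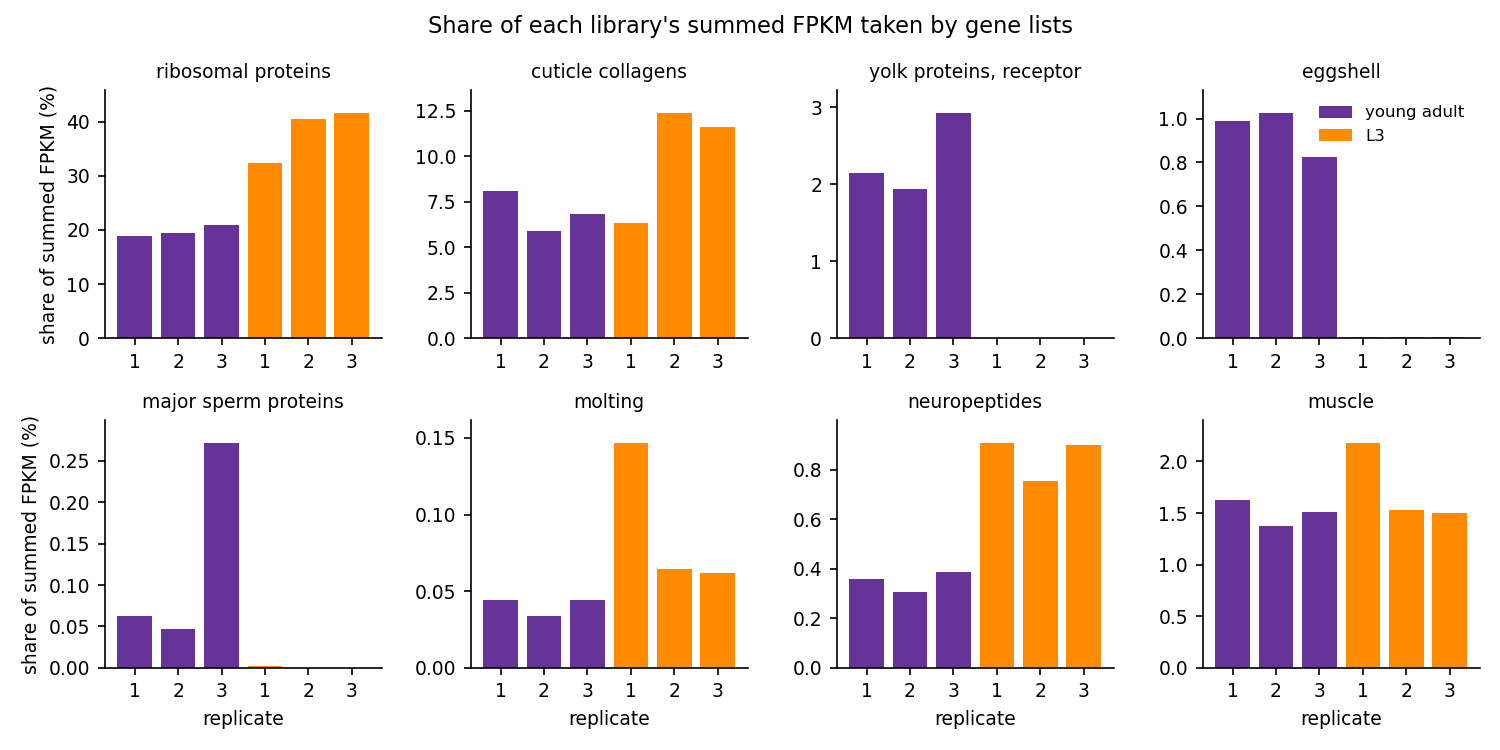
Percent of each library's summed FPKM taken by 8 gene lists in young adult (purple, left) and L3 (orange, right) replicates 1 to 3, each panel on its own axis from 0. Ribosomal protein genes took 18.9% to 20.9% in young adults and 32.4% to 41.6% in L3 larvae, major sperm proteins stood out in young adult replicate 3 and molting genes in L3 replicate 1. These are shares within a library and do not depend on scaling between libraries.

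Among the lists described here, ribosomal protein genes took the largest share of summed FPKM at both stages. Their 79 genes took 18.9% to 20.9% of summed FPKM in young adults, against 32.4% to 41.6% in L3 larvae. Of them 74 were called lower and 1 higher, with a median of -1.62. Under quantile scaling only 29 were called lower, the median was -0.30 and it lay 0.20 below that of all genes, so the size of this fall depended on scaling. The most abundant gene at both stages, rpl-29, had 12852, 14670.0 and 16732 FPKM in young adults, against 51106, 38351 and 48438 FPKM in L3 larvae. Quantile scaling gives the top gene of every library the same value, so the change of rpl-29 was fixed at 0.0 there. That setting could therefore not show whether rpl-29 fell, and it also limits changes of other genes near the top of every library. Behind it in young adults stood the unnamed genes F13H10.8 and Y82E9BR.3, far-2, which encodes a fatty acid and retinol binding protein, and the translation factor gene eef-1A.1. For far-2 the levels were 8332, 6664 and 7105 FPKM in young adults, against 1752, 3399 and 3086 FPKM in L3 larvae, a rise not called under upper-quartile scaling. A paralog pair moved apart. In this pair rpl-11.2 had 445, 344 and 555 FPKM in young adults, against 2572, 7268 and 5909 FPKM in L3 larvae. Its paralog rpl-11.1, the single rise of the list, had 1462, 1508 and 1687 FPKM in young adults, against 392, 758 and 865 FPKM in L3 larvae, but not under every scaling. The changes were -3.44 ± 0.41 (SE) for rpl-11.2 and 1.28 ± 0.31 (SE) for rpl-11.1. In every young adult library rpl-11.1 was the more abundant of the pair, and in every L3 library rpl-11.2 was.

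Core histone genes had 35 lower and 5 higher of 67 tested, with a median of -0.93, and 23 lower without young adult replicate 1. Under a common sum 15 were called higher and 25 lower, with a median of -0.43. Most are transcribed without a poly(A) tail, and these libraries were selected on oligo(dT), so their levels here cover only the tailed part. The H3.3-type gene his-74 had 461, 561 and 478 FPKM in young adults, against 86.2, 131 and 114 FPKM in L3 larvae. Another H3.3-type gene, his-71 on the X, had 63.2, 48.0 and 62.8 FPKM in young adults, against 308, 221 and 305 FPKM in L3 larvae. The changes of his-74 and his-71 had opposite signs, at 2.19 ± 0.20 (SE) and -2.24 ± 0.20 (SE). Identical values were listed for his-19, his-21, his-51 and his-53, at 0.609, 1.06 and 1.37 FPKM in young adults, against 12.03, 18.6 and 14.6 FPKM in L3 larvae, so these copies cannot be told apart. The histone counts and medians above take each such copy as a separate gene.

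C-type lectins and nuclear hormone receptors moved in both directions. Of 92 lectin genes tested, with 164 more under the filter, 20 were called higher and 23 lower, with a median of -0.43. Both were smaller shares than among all tested genes, of which 36.5% were called higher and 28.3% lower. Which direction led depended on scaling, with 28 higher, 11 lower and a median of 0.18 under a common sum, against 12 higher, 44 lower and a median of -0.92 with the upper quartile. With no filter 22 of 222 were higher and 25 lower, with a median of -0.043. Without young adult replicate 1 there were 13 higher and 15 lower. The top rise was clec-87, with 844, 962 and 715 FPKM in young adults, against 4.60, 15.8 and 11.1 FPKM in L3 larvae. Levels of clec-88 were 264, 278 and 207 FPKM in young adults, against 4.69, 5.99 and 3.11 FPKM in L3 larvae. Another lectin gene, clec-91, rose by 5.68. The largest fall was clec-230, with 0.276, 0 and 0.135 FPKM in young adults, against 19.2, 15.5 and 16.7 FPKM in L3 larvae. The change of clec-87 was 6.32 ± 0.40 (SE). Of 165 nuclear receptor genes tested 65 were called lower and 9 higher, with a median of -0.62, and with no filter 63 of 273 were lower and 7 higher, with a median of -0.32. The number lower ran from 15 with a common sum, where 19 were higher, to 108 with the upper quartile. It was 31 without young adult replicate 1, 36 without young adult replicate 2 and 39 without L3 replicate 3. Levels of nhr-91 were 1.57, 1.65 and 1.92 FPKM in young adults, against 22.4, 10.4 and 9.74 FPKM in L3 larvae. Among the rises, nhr-66 had 47.1, 49.9 and 41.4 FPKM in young adults, against 22.5, 7.95 and 7.29 FPKM in L3 larvae.

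Heat shock proteins had no common direction, with 4 higher and 5 lower of 21 and a median of 0.006 that was 0.66 with a common sum and -0.56 with upper-quartile scaling. These counts were smaller shares than the 36.5% higher and 28.3% lower of all tested genes. The small heat shock gene hsp-12.2 had 46.3, 36.6 and 69.1 FPKM in young adults, against 414, 223 and 329 FPKM in L3 larvae. The endoplasmic reticulum chaperone gene hsp-4 had 217, 563 and 221 FPKM in young adults, against 137, 97.6 and 94.1 FPKM in L3 larvae. Young adult replicate 2 was its highest library, and its call was lost under at least 1 scaling. Small heat shock genes of the hsp-16 group were likewise highest in young adult replicate 2 and lowest in replicate 3, and none was called. The number called higher was 7 without L3 replicate 1, 1 without L3 replicate 3, and 2 without L3 replicate 2 or young adult replicate 1 or 2. Without L3 replicate 1 and young adult replicate 3, 12 of the 21 were called higher. Of 18 genes first transcribed in early embryos 15 were under the filter. The other 3, pes-10, vet-6 and vet-2, were under 1 FPKM in every L3 library and passed through young adults alone, so their calls are given as a description. With no filter 6 of the 18 were called higher, with a median of 0.29. For vet-2 the levels were 6.29, 7.54 and 3.51 FPKM in young adults, against 0.168, 0.414 and 0.354 FPKM in L3 larvae.

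Some families named by symbol were noticed after their values had been seen and are given as counts without a test of their own. Nuclear pore genes (npp) had 25 higher and 0 lower of 26, with a median of 2.05. All 13 proteasome regulatory genes (rpn) and all 13 prp splicing genes were called higher, with medians of 0.98 and 1.46. Mediator subunits (mdt) had 16 higher and 0 lower of 21. In the other direction, 19 of 33 glutathione S-transferase genes (gst), 18 of 27 globin genes (glb), 17 of 26 ligand-gated channel genes (lgc) and 14 of 24 neuropeptide receptor genes (npr) were called lower and 0 higher. Astacin metalloprotease genes (nas) had 15 lower and 1 higher of 22. In all, 44 gst, 34 glb, 56 lgc, 43 npr and 37 nas genes had values, and those not tested were under the filter. Genes low in young adults could pass it through L3 values alone, so these falls are given as a description. Over all tested genes 36.5% were called higher and 28.3% lower. Over the reported values and 4 other scalings none of the family medians changed sign.

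Whether the stage change differed from that of XX males of CB5362 was tested as an interaction over 14628 genes and 13 libraries. The change was higher in XO hermaphrodites for 4774 genes (32.6%) and lower for 3498 (23.9%). This balance depended on scaling, with 5989 higher and 2455 lower under a common sum, 4739 and 3387 with quantile scaling, 4412 and 4366 with the median ratio and 3430 and 5246 with the upper quartile. Strain, sex and X number differ together here and cannot be told apart. All 14 eggshell genes, 20 of 21 oocyte RNA regulators, all 21 replication and mitosis genes and 26 of 28 meiotic genes had a higher stage change in XO hermaphrodites. Over the 4 other scalings these counts were 14, 20 to 21, 21 and 25 to 28. The median change of the eggshell list was 6.21 in XO hermaphrodites and 0.72 in XX males. That of replication and mitosis genes was 2.86 in XO hermaphrodites and -0.68 in XX males. Among 132 neuropeptide genes 92 had a lower change in XO hermaphrodites, with medians over the 129 genes of -1.93 there and 0.15 in XX males. In 51 sperm formation genes the change was lower in XO hermaphrodites for 31 and higher for 5. Only 32 genes of this list passed the filter over the 6 TY2205 libraries. Genes outside these 32 entered through XX male values, so the counts are given as a description. Of 30 major sperm protein genes 5 had a lower change in XO hermaphrodites and 0 a higher one, with 5 to 12 lower over the 4 other scalings. Of 21 molting genes 4 had a higher change in XO hermaphrodites and 0 a lower one, against 8 higher and 0 lower with a common sum and 3 higher and 2 lower with the upper quartile. For ule-4 (C08F11.11) the change was 9.91 in XO hermaphrodites and 2.09 in XX males.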

How the data were processed

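Whole worms of each strain and stage were profiled by RNA sequencing of oligo(dT)-selected RNA in strand-marking libraries (per the labels). Expression was deposited by the authors as FPKM in a single gene table, which the submitters' processing notes credit to Cufflinks 2.2.0. The aligner, annotation and build used were not given in the sources used here. Neither coordinates nor sequences are therefore shown. Of 20417 table lines, 6 repeated a gene, and 20376 genes had values. Gene IDs were matched to current symbols for 19175 genes, and both names are given where they differ.

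FPKM values were used as deposited, as log2(FPKM + 1). Genes averaging 1 FPKM or more in the 6 TY2205 libraries were fitted with limma 3.58.1 (R 4.3.3, trended empirical Bayes), young adult minus L3, with two-sided p-values adjusted over 13378 genes by the Benjamini-Hochberg method at 0.05. No set tests were run: a list is described by its counts and its median log2 change beside those of all genes. The interaction with stage in CB5362 was fitted the same way on 13 libraries and 14628 genes. The method was tested on simulated data. Tables and the permutation test used Python 3.11.15, pandas 2.3.3 and scipy 1.17.1. Replicates are numbered as in the sample titles. Young adult replicates 2 and 3 are the deposited columns Rep3 and Rep4, since column Rep2 is the reverted library. Same-numbered libraries of the stages did not deviate together (correlations of -0.0596, -0.015 and -0.0154), so the numbers were not treated as pairs. Numbered by column instead, young adult replicate 2 would pair with L3 replicate 3, at a correlation of -0.0279. No 2 of the 6 libraries were identical. Exact 0 values beside at least 10 FPKM in the same stage can be failed estimates.

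The genes and lists were chosen with earlier results of these data known. Candidate genes were drawn by a rule, which took the 8 largest rises and falls among genes called. These needed libraries of the stages not overlapping, at least 10 FPKM and no 0 in the higher stage. Under the same conditions the first 2 of each list in each direction were drawn. Also drawn were the 5 most abundant of each stage, the 3 largest interactions in each direction, and the yolk, male and strain genes. Not every gene so drawn is named, as the text gives those that a description turns on. Other named genes were chosen after their values were seen, to show roles within a list. Alternatives were 2 other pseudocounts, 2 other filters, 4 scalings, array weights, no trend, a replicate block, a fit of all 13 libraries, leaving out genes with a 0 beside at least 10 FPKM, leaving out libraries, and 2 stricter calls (an adjusted p under 0.01, or a change of at least 1 as well).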

Additional observations from a re-analysis of the deposited data

Results flagged for a closer look

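The stage change was tested for a difference between XO hermaphrodites of TY2205 and XX males of CB5362. By limma's interaction with Benjamini-Hochberg adjustment, 4774 genes had a higher and 3498 a lower stage change in XO hermaphrodites. With upper-quartile scaling 3430 had a higher and 5246 a lower one, and with the median ratio 4412 and 4366, so which direction held more genes depended on scaling.

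The 3 largest differences above 0 were those of Y17D7B.10, ule-4 (C08F11.11) and ule-1 (W03F11.1). For Y17D7B.10 the difference was 9.94, with a standard error of 4.0 and an adjusted p of 0.0497. Its young adults ranged from 0 to 2113 FPKM in XO hermaphrodites and from 0 to 2140.3 FPKM in XX males, and its L3 larvae were listed at 0 in XO hermaphrodites, against 1604 to 1949 FPKM in XX males. The call was lost when most single libraries were left out. For C08F11.11 the difference was 7.82, with young adults averaging 1153 ± 77.2 FPKM in XO hermaphrodites (SD, n = 3) and 7.88 ± 13.2 FPKM in XX males (SD, n = 4). For W03F11.1 the difference was 7.635, with young adults averaging 498 ± 113 FPKM in XO hermaphrodites (SD, n = 3) and 3.60 ± 6.49 FPKM in XX males (SD, n = 4).

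The 3 largest differences below 0 were those of fipr-17 (-11.12), C48B4.12 (-10.99) and fipr-16 (-10.70). Young adult levels of fipr-17 averaged 1.43 ± 1.29 FPKM in XO hermaphrodites (SD, n = 3) and 4227 ± 1222 FPKM in XX males (SD, n = 4). For C48B4.12 they averaged 0.0282 ± 0.0488 FPKM in XO hermaphrodites (SD, n = 3) and 1900.2 ± 597 FPKM in XX males (SD, n = 4). For fipr-16 they averaged 5.26 ± 5.998 FPKM in XO hermaphrodites (SD, n = 3) and 2507 ± 425 FPKM in XX males (SD, n = 4). Strain, sex and X number differ together between these groups and cannot be told apart.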

How the results depend on the processing

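No gene called as reported was called in the other direction under any alternative. Counts of calls stayed within 1.5 times the reported ones, except that a common sum gave 2097 lower genes. Leaving out 1 library gave 4236 to 5681 higher and 2936 to 4165 lower genes. With the replicate block there were 4656 higher and 3451 lower genes. With array weights there were 6377 and 5211. Of 4157 pairs of a named gene and an alternative, 129 lost a call, 30 gained one and 20 turned direction. The alternative without both libraries that stood apart was added after the data were seen.

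The genes that turned direction had small or uneven changes. The cause was not tested. Under quantile scaling Y82E9BR.3 was at 0.40, eef-1A.1 at 0.64 and her-1 at -0.12. With a common sum eef-1A.1 was at 0.047, mab-3 at 0.039, cwp-2 at 0.12 and lin-14 at 0.24. Upper-quartile scaling put sdc-2 at -0.20 and dpy-27 at -0.074. Array weights put mab-3 at 0.21 and lin-14 at 0.72. A pseudocount of 0.1 put cwp-2 at 0.32. Without both libraries that stood apart, vit-6 was at -0.25, mab-3 at 0.068 and lin-14 at 0.67. Leaving out 1 library gave -0.10 to 0.51 for sdc-2, -1.55 to 5.13 for vit-6, -0.91 to 0.14 for cwp-2 and -0.89 to 0.73 for lin-14. Absolute depth is unknown, so what it limits could not be computed.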
